A study of Mus musculus with 12 samples.

Results

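The genes described here encode 10 costimulatory and activation surface receptors, Cd80, Cd86, Icosl, Cd274, Pdcd1lg2, Cd40, Cd83, Cd69, Slamf7 and Slamf8. They were listed by symbol and not chosen by a measured threshold, but earlier results of these data were known when the list was made. A symbol with several rows was to be represented by the row selected on its total count, but each symbol matched 1 row of the 54532 genes in the table. All 10 passed the filter on low counts, which left 14286 genes for testing. Reads were counted per gene in 12 RNA sequencing libraries of macrophages (BMDM) that had been grown from the marrow of mice of 8 weeks in 10 ng/ml of the growth factor M-CSF. The 4 groups hold 3 libraries each. They are Lyz2-Cre-Hdac3f/f cells given 500 ng/ml LPS for 4 h, untreated Lyz2-Cre-Hdac3f/f cells, Hdac3f/f cells given the same LPS treatment, and untreated Hdac3f/f cells. LPS is a bacterial lipid that macrophages detect through the receptor TLR4. All 4 groups carry the floxed allele of Hdac3, which encodes a histone deacetylase of corepressor complexes. Lyz2-Cre-Hdac3f/f cells, shortened to Lyz2-Cre, also carry Cre recombinase made from the Lyz2 locus, which is active in myeloid cells. A group with Cre and no floxed allele was not analysed here, so an effect of Cre and an effect of Hdac3 loss cannot be told apart.

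Macrophages show lymphocytes an antigen together with surface proteins that set how the lymphocyte answers. CD80 and CD86 bind CD28, which costimulates T cells, and CTLA-4, which restrains them, and ICOSL binds ICOS. PD-L1 (Cd274) and PD-L2 (Pdcd1lg2) bind the inhibitory receptor PD-1. CD40 receives CD40 ligand from activated T cells and signals into the macrophage through TRAF adaptors and NF-kB. CD83 and CD69 are markers of activated leukocytes, and SLAMF7 and SLAMF8 belong to the SLAM family of receptors. Many of these genes are known to be induced through NF-kB, interferon regulatory factors or both when macrophages sense LPS.

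RefSeq promoters of build GRCm38.p6 (mm10), from 250 bases before to 50 bases after the annotated start, were matched for 6 of the 10 genes. Those of 4 are shown, which include the neighbours Cd274 and Pdcd1lg2 and genes that moved in different ways between the genotypes. For Cd80 and Slamf7, each with an AP-1 match from base -42 to -36, the RefSeq start lies 3372 and 4036 bases inside the deposited gene and the window is not shown. The Icosl start lies 66 bases inside the deposited gene. Capitals mark matches, on either strand, to 5 motifs searched, which are the NF-kB consensus, the core of the interferon-stimulated response element (ISRE, GAAA and GAAA with 2 unspecified bases between them), the GAS element TTCNNNGAA, the AP-1 site TGANTCA and the PU.1 site GAGGAAG. The sequences are on the strand of the gene, at chr1:172590519-172590818 on the minus strand for Slamf8, and on the plus strand at chr10:78069118-78069417 for Icosl, chr19:29367188-29367487 for Cd274 and chr19:29410669-29410968 for Pdcd1lg2.
Slamf8: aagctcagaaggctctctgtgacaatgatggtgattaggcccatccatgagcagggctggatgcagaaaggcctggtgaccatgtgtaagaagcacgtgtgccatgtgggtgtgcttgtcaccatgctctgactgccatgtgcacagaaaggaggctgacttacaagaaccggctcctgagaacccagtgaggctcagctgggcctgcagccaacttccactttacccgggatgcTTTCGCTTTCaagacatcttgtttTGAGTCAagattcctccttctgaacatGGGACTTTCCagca
Icosl: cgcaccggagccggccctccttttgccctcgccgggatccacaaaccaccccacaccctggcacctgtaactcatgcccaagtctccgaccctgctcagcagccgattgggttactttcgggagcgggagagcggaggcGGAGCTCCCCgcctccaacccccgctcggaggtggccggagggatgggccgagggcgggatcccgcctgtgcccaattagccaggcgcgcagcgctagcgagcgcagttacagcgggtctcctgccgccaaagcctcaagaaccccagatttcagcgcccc
Cd274: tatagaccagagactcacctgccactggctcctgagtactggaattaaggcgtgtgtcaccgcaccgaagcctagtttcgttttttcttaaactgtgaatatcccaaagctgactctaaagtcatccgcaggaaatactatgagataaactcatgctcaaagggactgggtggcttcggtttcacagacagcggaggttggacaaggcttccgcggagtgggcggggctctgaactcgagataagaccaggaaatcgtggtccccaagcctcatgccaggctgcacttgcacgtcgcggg
Pdcd1lg2: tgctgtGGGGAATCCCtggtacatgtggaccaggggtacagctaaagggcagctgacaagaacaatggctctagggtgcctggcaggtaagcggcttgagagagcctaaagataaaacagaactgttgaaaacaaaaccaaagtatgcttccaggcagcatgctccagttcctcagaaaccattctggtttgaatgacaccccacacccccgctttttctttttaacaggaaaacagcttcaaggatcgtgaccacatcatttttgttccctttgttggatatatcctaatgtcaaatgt
The Slamf8 window held an ISRE core match on the opposite strand from base -15 to -6, an AP-1 match from base 10 to 16 and an NF-kB consensus match from base 37 to 46, counted from the start. The Icosl window held an NF-kB consensus match on the opposite strand from base -111 to -102, and the Pdcd1lg2 window one from base -244 to -235. In the Cd274 window none of the 5 motifs was found. Among 32851 RefSeq promoters of the same length, the NF-kB consensus was found in 8.46%, the ISRE core in 3.44%, GAS in 8.3%, AP-1 in 7.81% and PU.1 in 13.6%. A match is a description of letters only.

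By the deposited mm10 coordinates, Cd274 (chr19:29367455-29388095, plus strand) and Pdcd1lg2 (chr19:29410919-29471157, plus strand) are neighbours 22.8 kb apart with 0 coding genes between them. Slamf7 (chr1:171632403-171653035, minus strand) and Slamf8 (chr1:172581758-172590568, minus strand) lie 929 kb apart with 24 coding genes between them. The others lie at chr16:38455561-38496335 (Cd80, plus), chr16:36603869-36666081 (Cd86, minus), chr10:78069302-78083913 (Icosl, plus), chr2:165055627-165072948 (Cd40, plus), chr13:43784775-43803132 (Cd83, plus) and chr6:129267325-129275436 (Cd69, minus). Slamf7 shares its locus with the antisense gene Gm37787, which had 509 counts over all libraries, and with Mir7683, which had 43. Slamf7 itself had 101678 counts. Whether the counting used strand is not given in the sources used here, so the assignment of reads where Slamf7 and Gm37787 overlap cannot be checked.

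Library totals ran from 16553432 to 18706990 counts, and levels below are CPM, counts scaled to a library size of 1000000 after TMM normalization, whose factors ran from 0.716 to 1.26. With LPS the factors did not overlap between genotypes, at 0.896 to 0.937 in Lyz2-Cre and 0.716 to 0.822 in Hdac3f/f libraries. In untreated libraries they were 1.16 to 1.23 and 1.12 to 1.26. Hdac3 itself had 33.1 to 38.9 CPM in the 6 Lyz2-Cre libraries and 36.3 to 40.7 CPM in the 6 Hdac3f/f libraries. Its difference was -0.09 ± 0.09 with LPS and -0.14 ± 0.09 without (log2 ± SE, adjusted p = 0.473 and 0.352). A count over the whole gene does not resolve the floxed part, so it does not check the deletion. Replicate 1 of untreated Lyz2-Cre cells stood apart for Lyz2, a macrophage gene whose locus carries Cre. Lyz2 had 31.0 CPM in that library beside 5181 and 5637 CPM in replicates 2 and 3. Whether these libraries have the same Cre genotype was not tested. Counts that rest on replicate 1 are also given without it. The macrophage genes Csf1r, Adgre1, Cd68 and Cd14 were detected in every group, and the sum over 9 macrophage markers was 17860 to 19220 CPM in LPS-treated and 6295 to 11620 CPM in untreated Lyz2-Cre libraries, against 21120 to 23100 and 14490 to 17820 CPM in the matching Hdac3f/f libraries. Lyz2, the locus that carries Cre, made that sum lower, and the other 8 markers summed to 11490 to 11770 and 5730 to 6263 CPM in Lyz2-Cre libraries, against 10460 to 10750 and 5169 to 5830 CPM in Hdac3f/f libraries. Of the 9 markers, 3 were higher and 3 lower in Lyz2-Cre cells with LPS, and 1 was higher and 1 lower without it. The shares of all genes were 15.7% higher and 16.9% lower with LPS, and 5.12% higher and 6.66% lower without. These are bulk libraries, in which fewer cells that express a gene and less RNA per cell cannot be told apart.

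LPS raised all 10 genes in Hdac3f/f cells and 8 of the 10 in Lyz2-Cre cells. A gene was called where its Benjamini-Hochberg adjusted p in edgeR's quasi-likelihood test, over all 14286 genes, was under 0.05. By that rule 25.2% of all genes tested rose with LPS in Lyz2-Cre cells and 28% in Hdac3f/f cells. The median log2 fold change of the 10 was 1.65 in Lyz2-Cre cells and 2.45 in Hdac3f/f cells, beside -0.08 and -0.08 over all genes. The 10 genes kept to no common size. They ran in Hdac3f/f cells from 1.30 ± 0.20 for Cd80 to 6.68 ± 0.16 for Cd69 (adjusted p = 9.5e-05 and 8.8e-12, log2 ± SE). With LPS, 5 of the 10 were lower in Lyz2-Cre than in Hdac3f/f cells and none was higher, where 16.9% of all genes were lower and 15.7% higher. Without LPS, 5 were higher and 2 lower, where 5.12% of all genes were higher and 6.66% lower. In the interaction, the LPS response in Lyz2-Cre cells minus that in Hdac3f/f cells, 6 were called and all 6 were negative, where 5.54% of all genes were called negative and 2.58% positive. Library totals as the only scaling shifted the median of all genes between the genotypes with LPS to 0.29, and the same 5 genes were still called lower. The comparisons share libraries, so they are not independent of one another. Because the 10 genes were chosen with earlier results of these data known, the shares of all genes beside their counts are a description only. Differences below are log2 fold changes ± SE with n = 3 per group.

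**Figure D1:**
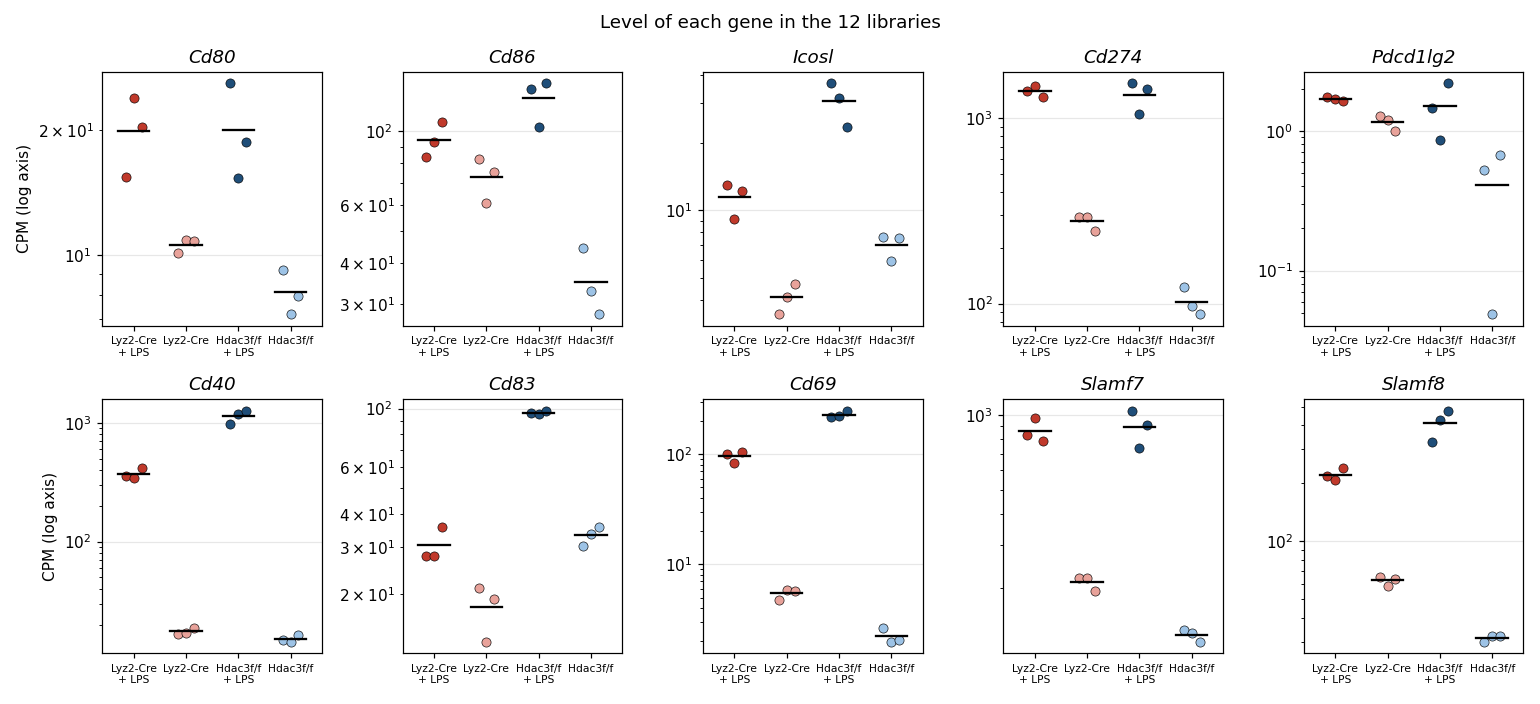
Level of each gene in every library, in TMM-scaled CPM on a log axis, for LPS-treated and untreated Lyz2-Cre-Hdac3f/f and Hdac3f/f cells (n = 3 each). Points are libraries and lines are group means. Cd40 lies between 345 and 414 CPM in LPS-treated Lyz2-Cre libraries and between 982 and 1267 CPM in LPS-treated Hdac3f/f libraries.

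Cd40 was the gene with the widest gap in CPM between the genotypes after LPS, and its difference before LPS was not called. Cd40 had 357, 345 and 414 CPM in LPS-treated Lyz2-Cre cells, against 982, 1198 and 1267 CPM in Hdac3f/f cells with LPS. Without LPS it had 16.8, 17.1 and 18.8 CPM in Lyz2-Cre cells, against 14.7, 14.4 and 16.3 CPM in Hdac3f/f cells. All LPS-treated Lyz2-Cre libraries lay below all LPS-treated Hdac3f/f libraries, and their mean was 32.4% of the Hdac3f/f mean. The difference with LPS was -1.63 ± 0.12 (adjusted p = 8.0e-06), a 3.09-fold lower level in Lyz2-Cre cells. Without LPS it was 0.22 ± 0.12 (adjusted p = 0.263, 95% interval -0.05 to 0.48). LPS raised Cd40 by 4.40 ± 0.13 in Lyz2-Cre cells and by 6.25 ± 0.14 in Hdac3f/f cells (adjusted p = 1.1e-10 and 6.3e-12), and the interaction was -1.84 ± 0.17 (adjusted p = 0.000347).

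Cd69, which encodes an early activation marker known to retain lymphocytes in tissue by binding the receptor S1PR1, was higher in Lyz2-Cre cells before LPS and lower after it. With LPS it had 101, 84.0 and 103.9 CPM in Lyz2-Cre cells, against 219, 221 and 249.1 CPM in Hdac3f/f cells. Untreated Lyz2-Cre cells had 4.71, 5.87 and 5.77 CPM, against 2.646, 1.996 and 2.045 CPM in untreated Hdac3f/f cells. The genotypes did not overlap under either treatment, but their order was opposite. The difference was -1.25 ± 0.12 with LPS (adjusted p = 5.8e-05) and 1.28 ± 0.16 without it (adjusted p = 0.000442). LPS raised Cd69 by 4.14 ± 0.14 in Lyz2-Cre cells and 6.68 ± 0.16 in Hdac3f/f cells (adjusted p = 1.9e-10 and 8.8e-12). The interaction of -2.54 ± 0.20 (adjusted p = 0.000164) was the one of largest size among the 10.

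Slamf8, which encodes a SLAM family receptor of myeloid cells known to dampen the oxidative burst in mice, showed the same change of order. It had 219, 208 and 239 CPM in LPS-treated Lyz2-Cre cells, against 326, 424 and 476 CPM in Hdac3f/f cells with LPS. Untreated Lyz2-Cre cells had 65.0, 58.7 and 64.1 CPM, against 30.2, 32.3 and 32.2 CPM in untreated Hdac3f/f cells. The groups did not overlap. Its log2 difference was -0.88 ± 0.12 with LPS and 0.99 ± 0.13 without it (adjusted p = 0.00046 and 0.00069). The LPS response was 1.83 ± 0.13 in Lyz2-Cre cells and 3.69 ± 0.14 in Hdac3f/f cells (adjusted p = 9.8e-08 and 2.7e-10), and the interaction was -1.87 ± 0.18 (adjusted p = 0.000347). Its promoter, printed above, was the one of the 6 with matches to 3 of the motifs.

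Cd83 and Icosl were lower in Lyz2-Cre cells under both treatments. CD83 is a surface protein of activated antigen-presenting cells known to protect CD86 and MHC class II from ubiquitination by MARCH1. Cd83 had 27.8, 27.8 and 35.9 CPM in LPS-treated Lyz2-Cre cells, against 96.2, 95.2 and 98.3 CPM in Hdac3f/f cells with LPS. In untreated cells Cd83 had 21.1, 13.2 and 19.2 CPM in Lyz2-Cre cells, against 30.4, 33.5 and 35.8 CPM in Hdac3f/f cells. The LPS-treated Lyz2-Cre libraries thus lay in about the range of the untreated Hdac3f/f libraries, although Cd83 rose with LPS in both genotypes. That rise was 0.78 ± 0.16 in Lyz2-Cre cells and 1.54 ± 0.16 in Hdac3f/f cells (adjusted p = 0.00123 and 2.5e-06). The difference between genotypes was -1.66 ± 0.16 with LPS and -0.90 ± 0.16 without (adjusted p = 5.8e-05 and 0.0048), and the interaction of -0.76 ± 0.22 was not called (adjusted p = 0.0553). It passed the threshold in 5 of 17 other settings, with adjusted p as low as 0.0129 in a DESeq2 Wald test.

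Icosl, the ligand of ICOS, had 13.0, 9.13 and 12.2 CPM in LPS-treated Lyz2-Cre cells, against 36.7, 31.6 and 23.4 CPM in Hdac3f/f cells with LPS. Without LPS it had 3.45, 4.14 and 4.73 CPM in Lyz2-Cre cells, against 7.59, 5.94 and 7.52 CPM in Hdac3f/f cells. All Lyz2-Cre libraries lay below the Hdac3f/f libraries of the same treatment. The log2 difference was -1.42 ± 0.19 with LPS (adjusted p = 0.000367) and -0.77 ± 0.20 without it (adjusted p = 0.0294). The second call was lost without replicate 1 of untreated Lyz2-Cre cells (adjusted p = 0.104) and in 4 of the other settings. LPS raised Icosl by 1.48 ± 0.20 in Lyz2-Cre cells and 2.12 ± 0.20 in Hdac3f/f cells (adjusted p = 4.7e-05 and 8.8e-07), with an interaction of -0.65 ± 0.28 that was not called (adjusted p = 0.186).

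**Figure D2:**
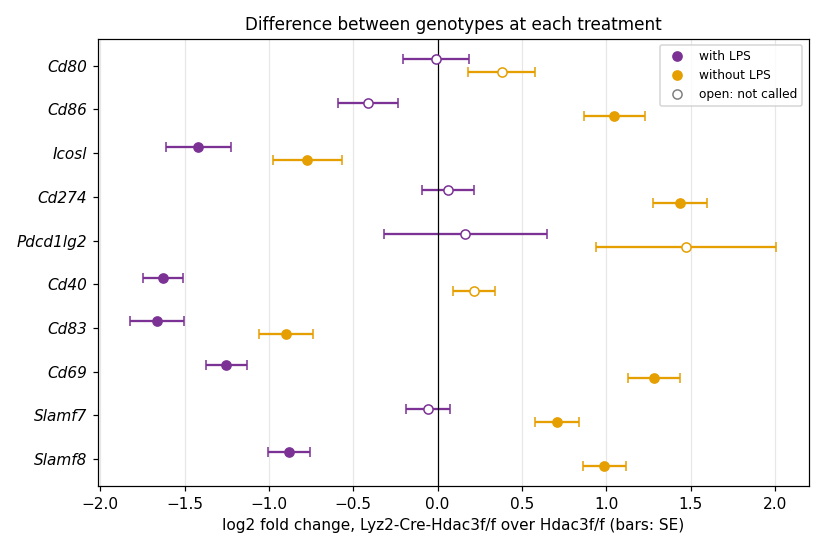
Difference between genotypes with LPS and without LPS, as log2 fold change of Lyz2-Cre-Hdac3f/f over Hdac3f/f, for the 10 genes. Bars are SE and filled points are called (edgeR, adjusted p under 0.05). With LPS the called points of Cd40, Cd83, Icosl, Cd69 and Slamf8 lie left of 0, and those of Cd69 and Slamf8 without LPS lie right of it.

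Cd274 and Slamf7 were higher in Lyz2-Cre cells before LPS and were not called different after it. Cd274, which encodes PD-L1, had 1409, 1487 and 1294 CPM in LPS-treated Lyz2-Cre cells, against 1539, 1049 and 1428 CPM in Hdac3f/f cells with LPS. Without LPS it had 293.5, 292 and 247 CPM in Lyz2-Cre cells, against 122.8, 97.5 and 87.65 CPM in Hdac3f/f cells. The LPS-treated groups overlapped and the untreated groups did not. The difference was 0.06 ± 0.16 with LPS (adjusted p = 0.791, 95% interval -0.28 to 0.40) and 1.44 ± 0.16 without it (adjusted p = 0.000222), where the untreated Lyz2-Cre mean was 271% of the Hdac3f/f mean. The LPS response was 2.33 ± 0.16 in Lyz2-Cre cells and 3.70 ± 0.17 in Hdac3f/f cells (adjusted p = 9.8e-08 and 1.6e-09), with an interaction of -1.37 ± 0.22 (adjusted p = 0.00366). Without replicate 2 of LPS-treated Hdac3f/f cells the difference with LPS was -0.086.

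Slamf7, which encodes a SLAM family receptor that can bind itself on neighbouring cells, had 828, 971 and 783 CPM in LPS-treated Lyz2-Cre cells, against 1042, 737 and 909 CPM in Hdac3f/f cells with LPS. Without LPS it had 220.4, 221 and 196 CPM in Lyz2-Cre cells, against 135.5, 132.7 and 122.2 CPM in Hdac3f/f cells. As for Cd274, the groups overlapped with LPS and were apart without it. The difference was -0.06 ± 0.13 with LPS (adjusted p = 0.762, 95% interval -0.34 to 0.22) and 0.71 ± 0.13 without it (adjusted p = 0.00582). LPS raised Slamf7 by 2.02 ± 0.13 in Lyz2-Cre cells and 2.78 ± 0.14 in Hdac3f/f cells (adjusted p = 5.9e-08 and 2.7e-09). The interaction of -0.76 ± 0.18 (adjusted p = 0.0247) was lost in 8 of 17 other settings, 7 of which left out 1 library.

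Cd86 was higher in Lyz2-Cre cells before LPS and was not called different after it. It had 83.7, 92.9 and 106.5 CPM in LPS-treated Lyz2-Cre cells, against 134.6, 103.1 and 139.6 CPM in Hdac3f/f cells with LPS. In untreated cells Cd86 had 82.3, 60.7 and 75.1 CPM in Lyz2-Cre cells, against 44.4, 33.0 and 28.0 CPM in Hdac3f/f cells. Untreated Lyz2-Cre libraries lay above untreated Hdac3f/f libraries without overlap, and 1 of the LPS-treated Hdac3f/f libraries lay within the Lyz2-Cre range. Cd86 was higher by 1.05 ± 0.18 without LPS (adjusted p = 0.00404). With LPS its difference of -0.42 ± 0.18 was not called (adjusted p = 0.0891). The LPS response of 0.38 ± 0.18 in Lyz2-Cre cells was not called (adjusted p = 0.0925), that of 1.84 ± 0.18 in Hdac3f/f cells was (adjusted p = 1.8e-06), and the interaction of -1.46 ± 0.25 was called (adjusted p = 0.00475). With library totals as the only scaling, the response in Lyz2-Cre cells was -0.011. That response passed the threshold in 4 of 18 other settings (adjusted p as low as 0.0334), and the difference with LPS in 3 of 18 (adjusted p as low as 0.0288).

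Cd80 and Pdcd1lg2 showed no called difference between the genotypes under either treatment. Cd80 had 15.4, 23.8 and 20.3 CPM in LPS-treated Lyz2-Cre cells, against 25.9, 15.3 and 18.7 CPM in Hdac3f/f cells with LPS, and 10.1, 10.8 and 10.8 CPM in untreated Lyz2-Cre cells, against 9.20, 7.20 and 7.98 CPM in untreated Hdac3f/f cells. The LPS-treated groups overlapped, and the untreated groups were apart by less than 1 CPM. The difference was -0.01 ± 0.19 with LPS (adjusted p = 0.976, 95% interval -0.43 to 0.41) and 0.38 ± 0.20 without it (adjusted p = 0.230). LPS raised Cd80 by 0.91 ± 0.20 in Lyz2-Cre cells and 1.30 ± 0.20 in Hdac3f/f cells (adjusted p = 0.00172 and 9.5e-05), and the first of these was lost with library totals alone (adjusted p = 0.0708).

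Pdcd1lg2, the gene of PD-L2, was at the limit of detection. Its counts were 29, 29 and 26 in LPS-treated Lyz2-Cre libraries, 26, 27 and 20 in untreated ones, 21, 11 and 30 in LPS-treated Hdac3f/f libraries and 12, 1 and 13 in untreated ones. It rose by 1.85 ± 0.54 with LPS in Hdac3f/f cells (adjusted p = 0.00973), a call that was lost without replicate 3 of LPS-treated Hdac3f/f cells (adjusted p = 0.0524) and with library totals alone (adjusted p = 0.0639). Its LPS response in Lyz2-Cre cells was 0.54 ± 0.48 (adjusted p = 0.361, 95% interval -0.49 to 1.58). Its difference between genotypes was 0.17 ± 0.48 with LPS and 1.47 ± 0.54 without (adjusted p = 0.821 and 0.0927), and the second passed the threshold in a DESeq2 Wald test (adjusted p = 0.0436).

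The low library of a group was not the same for every gene. Among LPS-treated Hdac3f/f libraries, replicate 2 was lowest for Cd274, Slamf7, Cd86, Cd80 and Pdcd1lg2, and replicate 1 was lowest for Cd40, Slamf8 and Cd69. In the untreated comparison all 10 genes had groups that did not overlap in CPM, where 36.5% of all genes tested did not overlap. With LPS 5 of the 10 did not overlap, where 43.2% of all genes did not.

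**Figure D3:**
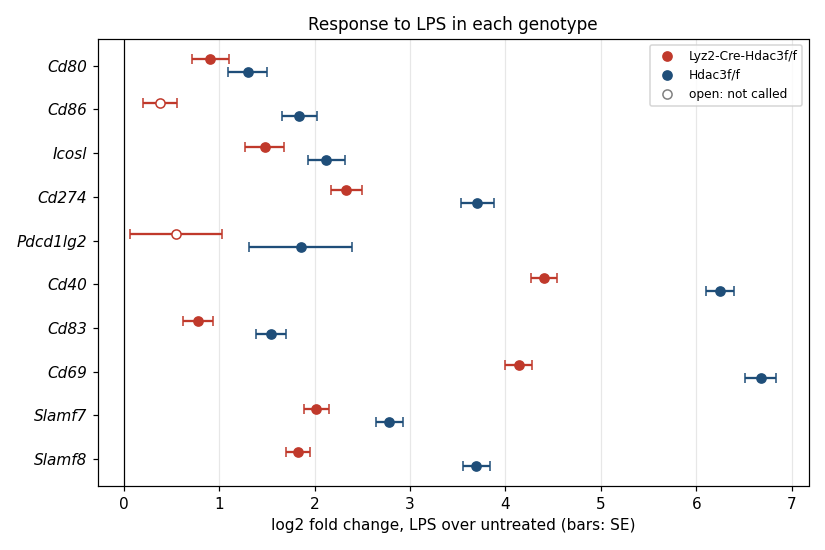
LPS response of the 10 genes, as log2 fold change of LPS-treated over untreated cells, in Lyz2-Cre-Hdac3f/f and Hdac3f/f macrophages. Bars are SE and filled points are called (edgeR, adjusted p under 0.05). The Lyz2-Cre point lies left of the Hdac3f/f point for each gene, with interactions between -0.39 for Cd80 and -2.54 for Cd69.

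Levels of different genes were set side by side on the FPKM scale, which divides by gene length. Cd274 headed LPS-treated Lyz2-Cre cells with a mean of 381 FPKM, followed by Slamf7 with 186 and Cd40 with 107.9 FPKM. In LPS-treated Hdac3f/f cells Cd274 (376 FPKM) and Cd40 (344 FPKM) overlapped over libraries, and Slamf7 followed with 199 FPKM. Within each library the ratio of Cd274 to Cd40 in FPKM was 2.94 to 4.05 in LPS-treated Lyz2-Cre cells and 12.4 to 16.4 in untreated ones, against 0.823 to 1.47 in LPS-treated Hdac3f/f cells and 5.07 to 7.85 in untreated ones. No group's range of that ratio overlapped another's.

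At the low end, Pdcd1lg2 averaged 1.01 FPKM in LPS-treated and 0.674 FPKM in untreated Lyz2-Cre cells, against 0.930 and 0.245 FPKM in the matching Hdac3f/f cells. The ratio of Cd86 to Cd80, the ligands of CD28, was 3.95 to 5.50 in LPS-treated Lyz2-Cre libraries and 5.66 to 8.24 in untreated ones, against 5.27 to 7.54 in LPS-treated Hdac3f/f libraries and 3.55 to 4.88 in untreated ones. Its order between genotypes thus differed with the treatment, with overlap after LPS and none before. The ratio of Cd40 to Cd83 was 8.71 to 9.69 in LPS-treated Lyz2-Cre libraries and 7.71 to 9.74 in LPS-treated Hdac3f/f libraries, so with LPS both genes were lower in Lyz2-Cre cells by about the same factor. Without LPS that ratio was 0.602 to 0.976 in Lyz2-Cre and 0.325 to 0.366 in Hdac3f/f libraries, with no overlap.

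**Figure D4:**
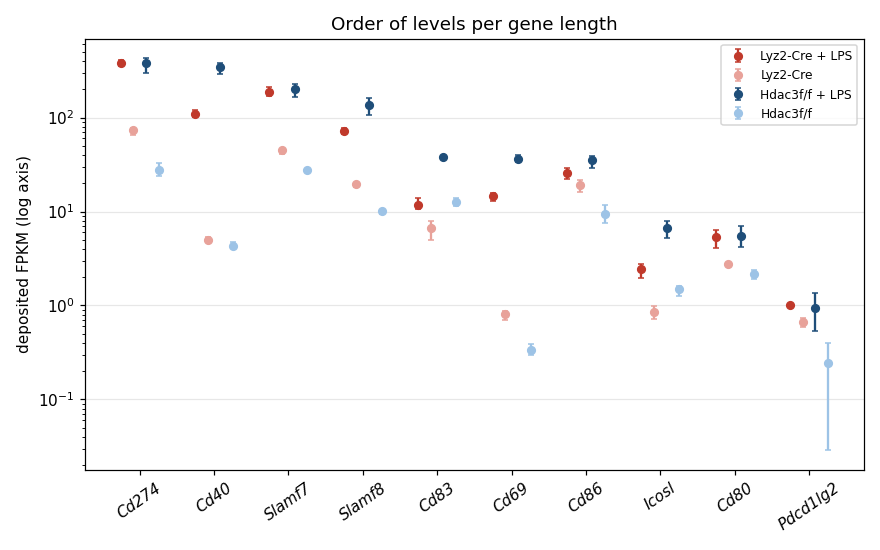
Mean level of the 10 genes per length (deposited FPKM, log axis) in each group, with bars from the lowest to the highest library (n = 3). Cd274 has the highest mean in both Lyz2-Cre groups and in LPS-treated Hdac3f/f cells, where it overlaps Cd40. In untreated Hdac3f/f cells it overlaps Slamf7. Pdcd1lg2 has the lowest mean of every group and overlaps Cd69 in the untreated groups.

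Of 12 genes listed for CD40 signalling, 1 was higher and 6 were lower in Lyz2-Cre cells after LPS, with a median log2 difference of -0.24. When library totals were the only scaling, 2 were higher and 4 lower, with a median of 0.03. Beside this list and those below, 15.7% of all genes were higher and 16.9% lower with LPS, and 5.12% higher and 6.66% lower without. In the interaction 2.58% of all genes were called positive and 5.54% negative. The adaptor gene Traf1 averaged 342 ± 24.98 CPM in LPS-treated Lyz2-Cre cells and 702 ± 48.9 CPM in Hdac3f/f cells with LPS (SD, n = 3 each), a difference of -1.04 ± 0.09 (adjusted p = 3.8e-05). Nfkb2, the NF-kB subunit gene of the noncanonical pathway, was lower in Lyz2-Cre than in Hdac3f/f cells with LPS by 0.78 on the log2 scale, and Traf2 by 0.68. Birc2, an inhibitor-of-apoptosis ubiquitin ligase that restrains that pathway, was higher by 0.66. Without LPS Birc2 was the only one of the 12 called, and not with library totals alone (adjusted p = 0.0986). In the interaction 3 were called, all negative, and Traf1 had -1.26 ± 0.13 (adjusted p = 0.000382).

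Of 16 transcription factor genes listed for control of these receptors, 7 were lower and 0 higher in Lyz2-Cre cells after LPS, with a median of -0.31, and 6 were lower and 2 higher with a median of -0.05 under library totals alone. Irf1, the interferon-regulated activator known for Cd274 and Cd40, averaged 606 ± 26.9 CPM in LPS-treated Lyz2-Cre cells and 1133 ± 164 CPM in Hdac3f/f cells with LPS, and 104.5 ± 20.1 and 74.0 ± 4.53 CPM in the matching untreated cells. Its log2 difference was -0.90 ± 0.14 with LPS and 0.50 ± 0.14 without (adjusted p = 0.000676 and 0.0372), the same change of order as Cd69 and Slamf8. Its interaction was -1.40 ± 0.20 (adjusted p = 0.00159). With LPS the log2 differences of Irf5, Irf8 and the immediate early gene Nr4a1 were -1.04, -0.68 and -0.70. Without LPS 3 of the 16 were called, among them Nr4a1 at -0.63. Over all genes the medians of these comparisons were 0.02 with LPS and 0.03 without.

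Of 22 listed genes of B7 relatives and other checkpoint, costimulatory or adhesion ligands and receptors, 18 were tested. After LPS 9 were lower and 1 higher in Lyz2-Cre cells, with a median of -0.47. Under library totals alone 5 were lower and 3 higher, with a median of -0.20. Icam1, the adhesion ligand of LFA-1, averaged 709.8 ± 22.1 CPM in LPS-treated Lyz2-Cre cells and 1501 ± 192 CPM in Hdac3f/f cells with LPS, a difference of -1.08 ± 0.13 (adjusted p = 0.000191). Lgals9, which encodes galectin-9, had -0.97, and Cd276 (B7-H3) had -1.34 at a mean of 2.08 CPM in Lyz2-Cre and 5.25 CPM in Hdac3f/f cells. Nectin3 had -2.48 ± 0.85, but its mean was 0.158 CPM in Lyz2-Cre cells and 0.923 CPM in Hdac3f/f cells, and the call was lost with library totals alone (adjusted p = 0.0659).

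The called relatives of Slamf7 and Slamf8 went in both directions, and most of that list was not called. Of 8 tested SLAM relatives and adaptors, 2 were higher, 1 was lower and 5 were not called in Lyz2-Cre cells after LPS. Of all genes 15.7% were higher and 16.9% lower. With library totals alone 3 of the 8 were higher and 1 lower. Slamf6 was higher with LPS (20.1 ± 2.10 CPM in Lyz2-Cre and 6.58 ± 0.370 CPM in Hdac3f/f cells, adjusted p = 0.000403) and without it (6.86 ± 0.854 CPM in Lyz2-Cre and 2.24 ± 0.936 CPM in Hdac3f/f cells, adjusted p = 0.00155), by 1.61 ± 0.22 and 1.60 ± 0.24. Slamf9 had a log2 difference of -1.24 ± 0.23 with LPS (adjusted p = 0.00204) and Cd84 one of 0.67 ± 0.09 (adjusted p = 0.000359).

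Of 9 tested genes for trafficking and turnover of the receptors, 2 were higher and 2 lower in Lyz2-Cre cells after LPS. The shares of all genes were 15.7% higher and 16.9% lower. With library totals alone 3 of the 9 were higher and 0 lower. March1, which encodes a ubiquitin ligase of CD86 and MHC class II, averaged 311.5 ± 24.5 CPM in LPS-treated Lyz2-Cre cells and 182 ± 39.5 CPM in Hdac3f/f cells with LPS, a difference of 0.77 ± 0.15 (adjusted p = 0.00315). Cmtm6, which encodes a membrane protein known to keep PD-L1 at the cell surface in human cells, had -0.44 ± 0.10 (adjusted p = 0.0063, and 0.143 with library totals alone). Adam10, a sheddase gene, was higher by 0.88 and S1pr1 had -0.72, a call also lost with library totals alone (adjusted p = 0.164).

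Of 6 genes listed as binding partners of the receptors, 4 were tested, and 1 was higher and 0 lower in Lyz2-Cre cells after LPS. With library totals alone 3 were higher and 0 lower. Cd28 averaged 2.85 ± 0.305 CPM in LPS-treated and 54.0 ± 12.01 CPM in untreated Lyz2-Cre cells, and 1.58 ± 0.263 and 54.4 ± 18.2 CPM in the matching Hdac3f/f cells. Its LPS response was -4.24 ± 0.26 in Lyz2-Cre and -5.10 ± 0.28 in Hdac3f/f cells (adjusted p = 2.7e-08 and 7.4e-09). Icos was higher by 2.25 ± 0.41 with LPS (adjusted p = 0.00178), at 2.57 ± 1.29 CPM in Lyz2-Cre and 0.536 ± 0.102 CPM in Hdac3f/f cells.

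**Figure D5:**
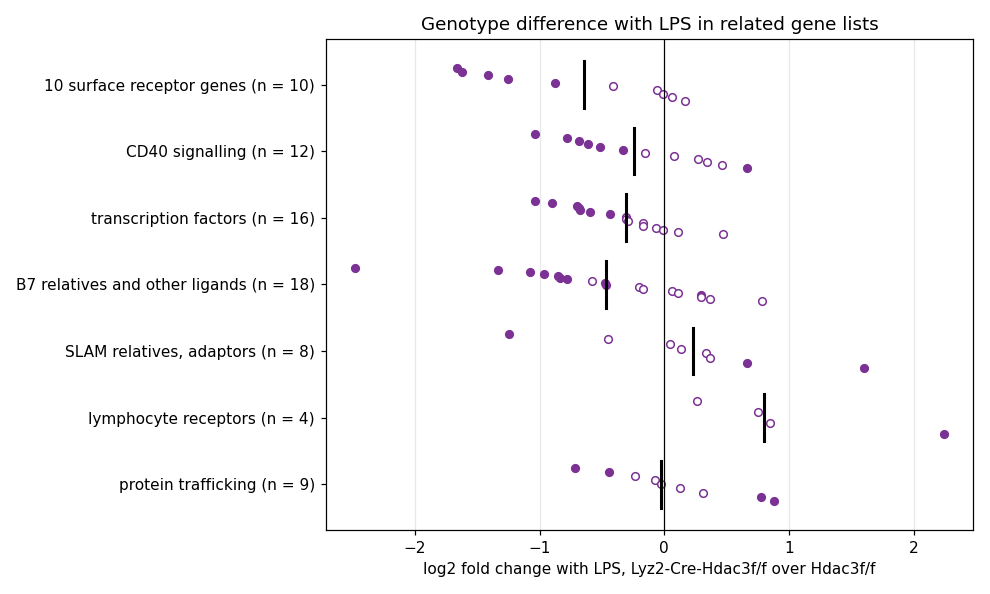
Difference between genotypes with LPS for the 10 receptor genes and the genes of 6 related lists, as log2 fold change of Lyz2-Cre-Hdac3f/f over Hdac3f/f. Each point is a gene, filled where called (edgeR, adjusted p under 0.05), and bars mark list medians. The list labelled lymphocyte receptors is that of the binding partners, and the list labelled B7 relatives and other ligands also holds receptors. In the transcription factor list the 7 called genes all lie left of 0, and in the CD40 signalling list 6 of the 7 called genes do.

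Some markers of other cell types also differed between the genotypes. Beside the counts below, 15.7% of all genes were higher and 16.9% lower with LPS, and 5.12% higher and 6.66% lower without. The sum over 8 stromal markers was 48.2 to 67.6 CPM in LPS-treated and 22.1 to 228 CPM in untreated Lyz2-Cre libraries, against 916 to 1885 and 318 to 1560 CPM in the matching Hdac3f/f libraries, and 6 of 7 tested were lower with LPS. Of 10 T and NK cell markers, 5 were higher and 1 lower with LPS, and 4 higher and 1 lower without, and their sum was 74.2 to 83.8 and 123 to 185 CPM in Lyz2-Cre cells, against 100.6 to 134.6 and 202 to 349.9 CPM in Hdac3f/f cells, here and below for LPS-treated and then untreated libraries. Cd4 made that sum lower, and the other 9 markers summed to 20.7 to 31.7 and 15.8 to 24.1 CPM in Lyz2-Cre cells, against 9.45 to 16.8 and 8.57 to 13.2 CPM in Hdac3f/f cells. Of 7 tested mast cell and basophil markers, 4 were higher and 1 lower with LPS and 6 higher without, with sums of 187 to 329 and 142 to 225 CPM in Lyz2-Cre cells, against 192 to 272.5 and 90.6 to 121.4 CPM in Hdac3f/f cells. The dendritic cell markers, many of which activated macrophages can also express, summed to 382 to 427 and 32.9 to 78.1 CPM in Lyz2-Cre cells, against 552 to 704 and 22.1 to 60.7 CPM in Hdac3f/f cells, with Fscn1 and Ccl22 the most abundant of them after LPS, and Cd209a was at 0 in all 12 libraries. Neutrophil markers summed to 103.4 to 371 and 57.1 to 161 CPM in Lyz2-Cre cells, against 131.3 to 301.5 and 219 to 382 CPM in Hdac3f/f cells, and B cell markers, of which 2 of 7 were tested, to 26.7 to 33.1 and 61.3 to 74.9 CPM in Lyz2-Cre cells, against 25.9 to 34.3 and 57.3 to 66.5 CPM in Hdac3f/f cells. Of the tested neutrophil markers 0 of 8 were called between the genotypes with LPS and 2 were lower without it, of the dendritic cell markers 1 was higher and 1 lower with LPS and 2 were higher without, and of the B cell markers 0 of 2 were called. The part of these cells in the results for the 10 receptor genes was not tested.

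By Pearson's r of log2 CPM over the 12 libraries, which fall into LPS-treated and untreated clusters and so share that step, genes of like pattern to Cd40 included Csf3r and Rhbdf2 (0.998 each). Cd274 was most like Cd38 (0.995), Slamf7 like Azi2 (0.996), Slamf8 like Nupr1 (0.997) and Cd69 like Nod2 (0.998). The nearest genes of Cd86 were Tmem209 (0.986), of Icosl Hspa1b (0.977), of Cd83 Bod1 (0.974), of Cd80 Phlpp2 (0.969) and of Pdcd1lg2 Med19 (0.9). In the authors' deposited table, in which a positive log2 ratio means a higher level in Hdac3f/f, the 10 genes lay on the same side of the threshold in 10 of 10 cases without LPS and 9 of 10 with LPS. The exception was Cd86 with LPS, which that table gave at 0.42 with an adjusted p of 0.0464.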

How the data were processed

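Counts per gene and FPKM were deposited by the authors for 12 libraries, 3 in each of 4 groups. Per the submitters' processing notes, TopHat2 and mm10 were used, and the counter and annotation are not given in the sources used here. The authors' deposited group means (signal), log2 ratios and p-values of the genotype comparisons were used only for description, and the test behind those p-values is not given in the sources used here. Counts were tested with edgeR 4.0.16 in R 4.3.3 (filterByExpr, TMM, glmQLFit and glmQLFTest, 1 coefficient per group), giving 5 contrasts. A gene was called at a Benjamini-Hochberg adjusted p under 0.05 over all 14286 tested genes. The SE is the absolute log2 fold change divided by the square root of F. The test was run on simulated counts with a common spread for all genes and few changed genes. That setting cannot check the scaling or the spread of these data. Alternatives used DESeq2 1.42.0, other scalings, no low-count filter, the 2 compared groups alone, a replicate block and leaving out each library.

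The members and lists were chosen with earlier results of these data known. All 10 members are named, with Hdac3 and Lyz2 as label checks, at most 4 called genes with the largest absolute log2 fold change per list and contrast, genes that overlap a member, and the genes of most alike pattern among those with a mean of at least 5 CPM (prior count 2). The labels do not say whether replicates are separate animals, so p-values measure the spread between these libraries. That spread may be technical, and how much of it is technical was not tested. The untreated Lyz2-Cre replicates differed widely in Lyz2, and whether they share a Cre genotype was not tested. Between replicates the chi-square divided by the number of genes was 7.97 to 46.2, where counting error alone gives about 1, so no 2 replicates were counted as 1 sample. Some genes that this rule names are not reported here.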

Additional observations from a re-analysis of the deposited data

Results flagged for a closer look

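The LPS response differed between the genotypes by a test of the difference itself (the interaction in edgeR's quasi-likelihood test, log2 ± SE, Lyz2-Cre-Hdac3f/f minus Hdac3f/f, n = 3 per group) for 6 of the 10 genes. It was -2.54 ± 0.20 for Cd69 (adjusted p = 0.000164), -1.87 ± 0.18 for Slamf8 (adjusted p = 0.000347), -1.84 ± 0.17 for Cd40 (adjusted p = 0.000347), -1.46 ± 0.25 for Cd86 (adjusted p = 0.00475), -1.37 ± 0.22 for Cd274 (adjusted p = 0.00366) and -0.76 ± 0.18 for Slamf7 (adjusted p = 0.0247). The Slamf7 call was lost in 8 of 17 other settings. Of all genes tested, 5.54% were called negative and 2.58% positive in the interaction. For Cd40 the genotypes were not called different without LPS. For Cd274, Slamf7 and Cd86 the Lyz2-Cre cells were higher without LPS and not called different with it, and for Cd69 and Slamf8 the order of the genotypes was opposite under the 2 treatments.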

How the results depend on the processing

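Under 18 alternatives (17 for the interaction, which has no fit of 2 groups alone) the number of the 10 genes called ran from 7 to 9 for LPS in Lyz2-Cre cells, 9 to 10 for LPS in Hdac3f/f cells, 5 to 6 between genotypes with LPS, 6 to 8 without LPS and 5 to 7 in the interaction. Over single genes, 849 values kept their direction and side of the threshold, 16 lost the call, 14 gained it and 11 changed sign, all 11 of them values that were not called. Those were, for the genotype difference with LPS, Cd274 (leaving out 1 library gave -0.086 to 0.17), Cd80 (0.24 with library totals, 0.0045 with the replicate block, 0.0036 with the 2 groups alone, -0.17 to 0.22 leaving out 1 library), Slamf7 (0.20 with library totals, -0.18 to 0.061 leaving out 1 library) and Pdcd1lg2 (-0.11 to 0.54 leaving out 1 library), and, for LPS in Lyz2-Cre cells, Cd86 (-0.011 with library totals). Leaving out 1 library moved the count of all genes called to between 2798 and 6004 with LPS (4656 with all libraries), 779 and 2530 without LPS (1684) and 530 and 1995 in the interaction (1160), and DESeq2's Wald test gave 1792 for the interaction. Without replicate 1 of untreated Lyz2-Cre cells, 8 of the 10 genes were called for LPS in Lyz2-Cre cells. Between genotypes without LPS 6 were then called, and 5 in the interaction. Library totals as the only scaling shifted the median of all genes to -0.72 for LPS in Hdac3f/f cells, -0.46 for LPS in Lyz2-Cre cells, 0.29 between genotypes with LPS, 0.05 without LPS and 0.27 in the interaction. The genes called higher and lower were then 2109 and 6463 for LPS in Lyz2-Cre cells (3606 and 3958 with TMM), 2086 and 8242 for LPS in Hdac3f/f cells (3993 and 4591), 4465 and 1329 between genotypes with LPS (2243 and 2413) and 1134 and 448 in the interaction (369 and 791). The deviations of same-numbered libraries from their group means had correlations of -0.404 to 0.217, with 5 of 18 over 0.1. Between LPS-treated and untreated libraries they were 0.134, 0.0686 and 0.0109 in Lyz2-Cre cells, and 0.197, 0.0958 and 0.00255 in Hdac3f/f cells. With 3 libraries per group these values cannot decide whether the numbers pair the libraries. In the Lyz2-Cre libraries numbered 1, Lyz2 was unlike, at 31.0 CPM untreated and 6090 CPM with LPS. Whether those 2 libraries share a source was not tested. The fit with the replicate block called 8, 10, 5, 7 and 7 of the 10 genes in these comparisons, adding Cd83 in the interaction (adjusted p = 0.0444). The cause of these changes was not tested. With 1 to 30 counts per library, Pdcd1lg2 was limited by depth.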
